A study of Homo sapiens with 9 samples.

Results

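The miR-132 and miR-212 cluster comprises 4 mature miRNAs, the 3p and 5p arms of the hairpins MIR132 and MIR212. Its members were chosen by mature name in the table of raw counts, where each of the 4 names stands on 1 row, out of 2654 mature names in all. The cells were of Jurkat clone E6-1, an established line of human T lymphoblasts on which much of T cell receptor signalling was worked out, and their small RNA was sequenced. Cells were taken without activation (0 h) or 5 h and 12 h after activation, with 3 biological replicates at each time and 9 libraries in all. Activation was by antibodies, one to CD3, the receptor's signalling chains, fixed to the plate at 10 µg/mL, and one to the costimulator CD28, in solution at 5 µg/mL. All groups are the same line, and the cells without activation serve as the controls at 0 h. No cells without activation from 5 h or 12 h are among the samples, so that activation and time in culture cannot be told apart.

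A miRNA gene is transcribed as part of a longer RNA, from which a hairpin is cut out and trimmed to a short duplex of a 5p and a 3p arm. One arm is usually kept by an Argonaute protein and guides it to messenger RNAs, mostly through the seed, bases 2 to 8 from its 5′ end, while the other arm is mostly degraded. The 2 hairpins of this cluster are known as targets of the transcription factor CREB, and they are best studied in neurons, where activity raises them; in T cells, the same factor is activated downstream of the T cell receptor.

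The 4 mature sequences are printed first, because the 3p arms share their seed and the 5p arms do not. They are from RefSeq (GRCh38.p14), written 5′ to 3′, with the seed in capitals.
hsa-miR-132-3p: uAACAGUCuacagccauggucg
hsa-miR-212-3p: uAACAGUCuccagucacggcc
hsa-miR-132-5p: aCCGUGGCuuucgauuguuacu
hsa-miR-212-5p: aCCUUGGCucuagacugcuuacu
Counted from 1 at the 5′ end and without gaps, miR-132-3p and miR-212-3p were identical at 17 of 21 positions, including the first 9. They differed, with the base of miR-132-3p first, by A10C, C14U, U17C and U20C, all outside the seed. The 5p arms were identical at 14 of 22 positions, and the difference in their seeds was G4U, with the base of miR-132-5p first. Among 2370 human mature miRNAs of the reference table, the seed AACAGUC occurred in miR-132-3p and miR-212-3p only, and neither 5p seed occurred in another miRNA.

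Both hairpins lie on the minus strand of chromosome 17 (GRCh38), and GENCODE 29 gives both the same start and end as RefSeq. MIR212 is transcribed first (chr17:2050271-2050380) and MIR132 follows after 262 bases (chr17:2049908-2050008). The hairpins are printed with both mature arms in capitals, to show where the arms sit.
MIR212: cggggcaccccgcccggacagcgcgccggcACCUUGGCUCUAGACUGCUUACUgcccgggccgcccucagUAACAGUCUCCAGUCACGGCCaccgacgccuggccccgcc
MIR132: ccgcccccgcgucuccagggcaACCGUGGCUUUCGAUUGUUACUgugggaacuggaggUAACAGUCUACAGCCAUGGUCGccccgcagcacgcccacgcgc
The arms are separated by 17 bases in MIR212 and 14 in MIR132. In the predicted fold of lowest energy, 16 base pairs joined the arms of MIR212 and 17 those of MIR132. Neither hairpin lies in a protein-coding gene, and the nearest, HIC1, a gene for a transcriptional repressor, starts 4722 bases beyond MIR212. In RefSeq, 42 bases of the MIR132 hairpin also fall into a predicted long noncoding RNA, LOC124903896. The reference table of promoters holds no entry named MIR132 or MIR212.

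**Figure D1:**
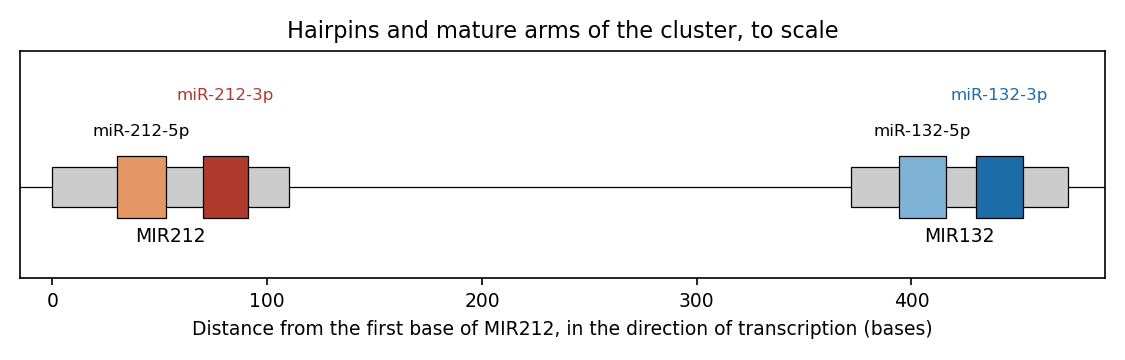
Map of the cluster to scale, with the distance in bases from the first base of MIR212 in the direction of transcription on the x axis. Grey boxes are the hairpins and coloured boxes the mature arms; the hairpins are 262 bases apart, and in each the 5p arm comes first.

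Total counts per library ranged from 6631839 to 16207031 and were lowest in replicate 3 of 12 h and replicate 3 of 0 h, called the 2 shallowest libraries here. The unit of level (CPM) is counts per 1000000 of the table's counts, after scaling between libraries. A count of 3 was worth 0.176 to 0.471 CPM, depending on the library. Intervals and limits for a single library reflect counting error alone, with each read taken as independent, because reads carry no molecular identifiers. Between replicates of the same time, the table as a whole differed by more than this error in every pair (chi-square over degrees of freedom of 70.4 or more). The miRNAs listed for a T cell line, miR-142-3p, miR-142-5p, miR-181a-5p and miR-342-3p, together held 43008 to 59325 CPM in every library. Of 6 miRNAs listed as neuronal, chosen because neurons are rich in miR-132, the defining miR-124-3p had 0 counts in all 9 libraries and 5 were present. Their summed level was 970 to 1227 CPM at 0 h, 995 to 1105 CPM at 5 h and 821 to 1059 CPM at 12 h, ranges that overlapped. The muscle miRNAs miR-1-3p and miR-133a-3p had 0 counts in every library. The liver miRNA miR-122-5p had 0 to 2.13 CPM at 0 h, 0.205 to 66.8 CPM at 5 h and 5.96 to 9.03 CPM at 12 h; its part in the results was not tested.

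All 4 arms were higher at 5 h than at 0 h, and all 4 passed the test across the table (edgeR, adjusted p under 0.05 over 701 rows), in which 1.43% of the rows were called higher. For all 4 every 5 h library was above every control, as for 6.85% of the rows. At 12 h, all 4 passed again, against 0.999% of the rows. Their libraries were again all above the controls, as for 7.13% of the rows. Both arms of miR-212, with few or no counts at 0 h, passed the filter on low counts only through activated libraries. miR-132-5p, with 6 counts in replicate 1 of 0 h, also needed activated libraries to pass it. The part of all these arms in the counts of 4 is thus not independent of the filter. For the arms of miR-212, lying above every control was largely fixed in advance and is no separate support. Between 5 h and 12 h none of the 4 passed. The arms differed widely in level and in precision. miR-132-3p was among the more abundant miRNAs of these cells, whereas miR-212-5p was not detected before activation. In bulk samples such as these, a change in the number of expressing cells and a change in the level per cell cannot be told apart.

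miR-132-3p is the arm usually kept as the guide, and its known targets include the messenger RNA of p250GAP, a regulator of the cytoskeleton, and that of the acetyltransferase p300. In replicates 1, 2 and 3 it held 7589, 5489 and 2745 counts at 0 h, which correspond to 488, 420 and 418 CPM. At 5 h it held 35694, 27803 and 57808 counts, or 3331, 2854 and 3391 CPM. At 12 h it held 47216, 40291 and 23391 counts, or 3527, 3400 and 3671 CPM. The highest control library was thus far below the lowest activated one, and the replicates of each time lay close together, with coefficients of variation of 9.03%, 9.23% and 3.84% at the 3 times. The fold change was 7.22 at 5 h, with a 95% confidence interval of 6.07 to 8.60 (log2 change 2.85 ± 0.12, SE; edgeR adjusted p = 3.19e-12, n = 3). At 12 h it was 7.99, with an interval of 6.71 to 9.52 (log2 change 3.00, SE 0.12, edgeR adjusted p = 1.48e-12). Both comparisons use the same 3 control libraries.

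With each mature miRNA counted once, miR-132-3p took 0.0678% ± 0.00873 of all counts before activation, 0.507% ± 0.0637 after 5 h and 0.554% ± 0.0251 after 12 h (SD, n = 3). By mean level it went from rank 67 of 626 tested miRNAs at 0 h to rank 28 at both later times. At 0 h its neighbours in that order were miR-363-3p and miR-19b-3p above and let-7e-5p and miR-221-3p below, with means from 422 to 467 CPM, within the spread between replicates. At 5 h and at 12 h it stood below miR-106a-5p and miR-103a-3p and above miR-625-5p. At 12 h its mean of 3532 ± 136 CPM and those of miR-103a-3p (3589 ± 319 CPM) and miR-106a-5p (3610 ± 420 CPM) differed by less than the spread between replicates (SD, n = 3). The gain in mean level, 2750 CPM at 5 h and 3091 CPM at 12 h, was the largest of the 626 miRNAs in both comparisons. In log2 change it ranked 4 of 245 miRNAs with a mean of at least 10 CPM at 5 h and 2 of 245 at 12 h. Over those 245, the 5th to 95th percentiles of the log2 change were -0.44 to 0.60 at 5 h and -0.48 to 0.62 at 12 h, so that miR-132-3p lay far outside the bulk of the table.

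miR-132-5p, the arm that is mostly degraded, held 6, 116 and 18 counts in the 3 control libraries, or 0.386, 8.87 and 2.74 CPM. It held 601, 493 and 861 counts at 5 h (56.1, 50.6 and 50.5 CPM) and 483, 584 and 255 counts at 12 h (36.1, 49.3 and 40.0 CPM). The activated libraries lay close together and far above the controls, which differed from each other by more than counting error: the 95% intervals of replicates 1 and 2 were 0.142 to 0.840 CPM and 7.33 to 10.6 CPM. On the log2 scale it rose by 3.70 ± 0.60 (SE, n = 3) at 5 h, with an edgeR adjusted p of 0.000974, and by 3.37 ± 0.60 at 12 h, with an adjusted p of 0.00224. Its size rested on single control libraries: without replicate 2 of 0 h it was 5.23 and 4.89, and without replicate 1 of 0 h it was 3.15 and 2.79. At 12 h it did not pass when the 2 shallowest libraries were omitted (log2 change 3.22, edgeR adjusted p = 0.0776) or when the 5 h libraries were (3.37, edgeR adjusted p = 0.0877), and neither time passed in limma without a variance trend on the deposited log2 values, with log2 changes of 4.48 (adjusted p = 0.0763) and 4.15 (adjusted p = 0.0810). With limma-voom, where both times passed, the log2 changes were 4.83 and 4.50.

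miR-212-3p, which carries the same seed as miR-132-3p, held 18, 0 and 0 counts at 0 h, or 1.16, 0 and 0 CPM. For the 0 counts in replicates 2 and 3, the 95% intervals reach up to 0.282 and 0.562 CPM. At 5 h it held 141, 97 and 187 counts (13.2, 9.96 and 11.0 CPM), and at 12 h 126, 91 and 125 counts (9.41, 7.68 and 19.6 CPM). Every activated library was above every control library, and at 12 h replicate 3, a shallow library, stood above the other 2. The mean rose from 0.386 ± 0.668 CPM to 11.4 ± 1.64 CPM at 5 h (log2 change 4.65 ± 0.90, SE; edgeR adjusted p = 0.00545, n = 3) and was 12.2 ± 6.45 CPM at 12 h (log2 change 4.75, SE 0.90, adjusted p = 0.00452). The size of the change is poorly known: the 95% interval of the fold was 6.81 to 93.0 at 5 h and 7.26 to 100.3 at 12 h. Without replicate 1 of 0 h the controls held no counts and no size could be given, and without replicate 2 of 0 h the log2 change was 4.04 at 5 h and 4.14 at 12 h. With limma-voom it was 6.14 and 5.99. At 12 h it did not pass without replicate 3 of 12 h (log2 change 4.24, edgeR adjusted p = 0.0588), when both shallowest libraries were omitted (3.81, adjusted p = 0.108) or when the 5 h libraries were (4.76, adjusted p = 0.110).

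Of miR-212-5p no control library held a count (0, 0 and 0), and there were 106, 16 and 63 counts at 5 h (9.89, 1.64 and 3.70 CPM) and 87, 112 and 19 counts at 12 h (6.50, 9.45 and 2.98 CPM). It was present in every activated library, at levels that varied within a time by more than counting error: at 5 h the 95% intervals were 8.10 to 12.0 CPM in replicate 1 and 0.939 to 2.67 CPM in replicate 2. The level of 3 counts over the 3 controls together was 0.0852 CPM. Against it, the mean at 5 h (5.08 ± 4.29 CPM, n = 3, edgeR adjusted p = 0.00129) was 59.6-fold higher. At 12 h the mean (6.31 ± 3.24 CPM, edgeR adjusted p = 0.00104) was 74.0-fold higher. These ratios allow for undetected counts in the controls and leave out the spread of the activated libraries, so they are not lower bounds of the fold. At 5 h these ratios were 33.6 and 36.4 without replicates 1 and 2 of 0 h and 30.7 without replicate 1 of 5 h. At 12 h they were 40.8 and 45.3 without replicates 1 and 2 of 0 h. With limma-voom miR-212-5p narrowly missed the threshold at 5 h (adjusted p = 0.0501).

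**Figure D2:**
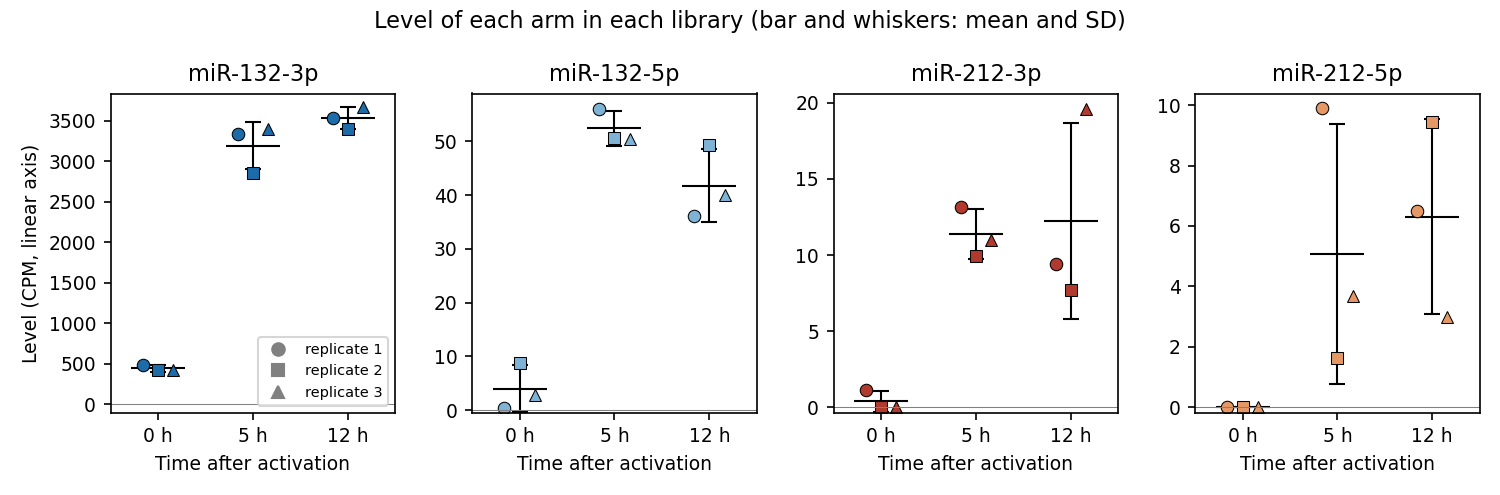
Level of each arm (CPM, linear y axes that differ between panels) in each library by time after activation, with marker shapes for the replicate numbers and bars and whiskers for the mean and SD of 3 libraries. In every panel all 6 activated libraries lie above the 3 controls; the spread within a time is small for miR-132-3p and large for miR-212-5p.

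The arms kept the order miR-132-3p, miR-132-5p, miR-212-3p and miR-212-5p in mean level at each time, but not in each library. In replicate 1 of 0 h miR-132-5p, at 0.386 CPM, was below miR-212-3p, at 1.16 CPM, and both arms of miR-212 overlapped after activation. At 12 h, replicate 3 held the highest level of miR-212-3p (19.6 CPM) and the lowest of miR-212-5p (2.98 CPM), whereas in replicate 2 the 5p arm was the higher of the 2 (9.45 against 7.68 CPM). miR-132-3p supplied 97.7% to 99.7% of the summed level of the 4 arms in every library. Levels of different miRNAs also carry an error from how well each sequence is captured in the library, which was not measured here.

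Between 5 h and 12 h, none of the 4 arms passed (edgeR), none had an unadjusted p under 0.05, and DESeq2 and limma-voom called none; of all rows, 0.571% were called. For miR-132-3p the fold was 1.11 with a 95% interval of 0.941 to 1.30 (adjusted p = 1). Its 3 libraries at 12 h were all above its 3 at 5 h, by a narrow margin of 3400 against 3391 CPM, and 4.99% of all rows had every library higher at 12 h. miR-132-5p went the other way, from 52.4 ± 3.19 to 41.8 ± 6.77 CPM (SD, n = 3), with every 12 h library below every 5 h library, as in 7.85% of the rows. Its fold was 0.798, with an interval of 0.369 to 1.72. For both arms of miR-212 the libraries of the 2 times overlapped, and the intervals of the fold, 0.367 to 3.13 for miR-212-3p and 0.360 to 4.31 for miR-212-5p, leave room for a change of either sign. The change of miR-132-3p was thus bounded closely between these times, and that of the other 3 arms was not.

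A single test for any difference among the 3 times called all 4 arms, with an edgeR adjusted p of 3.87e-12 for miR-132-3p, 0.00295 for miR-132-5p, 0.0109 for miR-212-3p and 0.00304 for miR-212-5p, against 1.71% of all rows. Without replicate 2 of 12 h the 2 arms of miR-212 did not pass (0.0721 for miR-212-3p and 0.0522 for miR-212-5p), and without replicate 3 of 12 h miR-212-3p did not (0.0669). Without the 2 shallowest libraries miR-132-5p (0.0868) and miR-212-3p (0.139) did not pass, and in limma without a variance trend on the deposited log2 values miR-132-5p did not (0.0961).

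**Figure D3:**
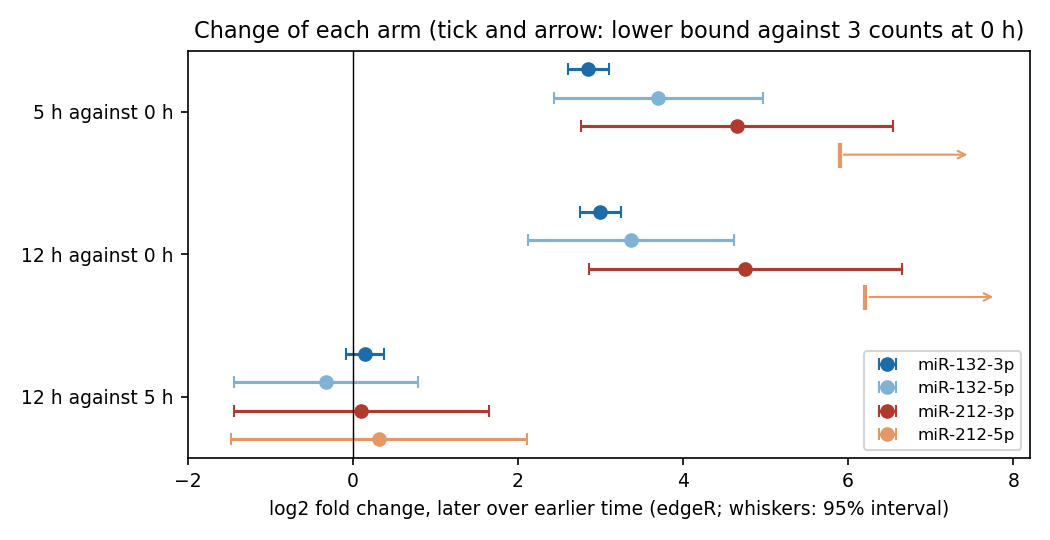
log2 fold change of each arm in the 3 comparisons (edgeR, x axis), with whiskers for the 95% interval over 3 libraries per time. For miR-212-5p against 0 h a tick with an arrow gives the mean against the level of 3 counts over the controls. This value, called a lower bound in the title, leaves out the spread of the activated libraries. The intervals against 0 h lie above 0, and those between 12 h and 5 h include 0.

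The balance of the 2 arms of a hairpin was examined next, as the share of its counts on the 5p arm, a quantity within 1 library that needs no scaling. For miR-132 this share was 0.0790%, 2.07% and 0.651% in the controls, 1.66%, 1.74% and 1.47% at 5 h and 1.01%, 1.43% and 1.08% at 12 h. The controls spanned all the activated libraries: the exact 95% binomial intervals were 0.0290% to 0.172% in replicate 1 and 1.71% to 2.48% in replicate 2 of 0 h. The share did not differ among the 3 times beyond this spread (exact permutation p = 0.421; the smallest possible p is 0.00357). Without replicate 2 of 0 h the same exact permutation test gave p = 0.00357, the smallest it can give. The mean share was 0.449 points lower at 12 h than at 5 h, with no overlap of the libraries (exact two-sided permutation p = 0.1, the smallest that 3 against 3 libraries allow). In a limma fit of the log2 ratio of 3p to 5p counts over 165 hairpins with both arms tested, 0.00% of the hairpins passed in each comparison, while 9 hairpins at 5 h, 11 at 12 h and 12 between 5 h and 12 h had an unadjusted p under 0.05. For miR-132 the difference in the log2 ratio was -1.73 at 5 h (SE 1.04, limma adjusted p = 0.743), -1.24 at 12 h (SE 1.04, adjusted p = 0.822) and 0.49 between 5 h and 12 h (SE 1.04, adjusted p = 0.974). Without replicate 1 of 0 h the values against 0 h were -0.46 at 5 h and 0.03 at 12 h, and without replicate 2 of 0 h they were -2.78 and -2.29.

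miR-212 was less one-sided. Its 5p share was 42.9%, 14.2% and 25.2% at 5 h and 40.8%, 55.2% and 13.2% at 12 h. The libraries of 1 time differed by more than counting error, with an exact 95% binomial interval of 34.2% to 47.8% in replicate 1 and 8.13% to 19.8% in replicate 3 of 12 h, and the times overlapped (exact two-sided permutation p = 0.7). At 0 h the share could be computed in replicate 1 only, with 0 of 18 counts, which is an upper limit of 18.5%, so that no change from 0 h was computed for miR-212. Over the 9 libraries, the mean log2 ratio of 3p to 5p counts was 6.66 for miR-132, rank 40 of 165 hairpins in one-sidedness, and 1.41 for miR-212, rank 132, against a median of 3.76. The value for miR-212 includes 2 control libraries without counts on either arm, which enter as 0.

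The counts of the common seed were then divided between the 3p arms that carry it. miR-212-3p supplied 0.237%, 0% and 0% of them in the controls, 0.393%, 0.348% and 0.322% after 5 h and 0.266%, 0.225% and 0.532% after 12 h. Every 5 h library was above every control, and at 12 h the lowest library was within the range of the controls. By an exact two-sided permutation test, the mean was 0.276 points higher at 5 h (p = 0.1, the smallest possible) and 0.262 points higher at 12 h (p = 0.2). Without replicate 3 of 12 h the latter difference was 0.167 points. The exact permutation test over the 3 times gave p = 0.0857, with p = 0.0429 without replicate 1 of 0 h and p = 0.0464 without replicate 3 of 12 h. In every library nearly all counts with the seed AACAGUC were thus those of miR-132-3p.

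**Figure D4:**
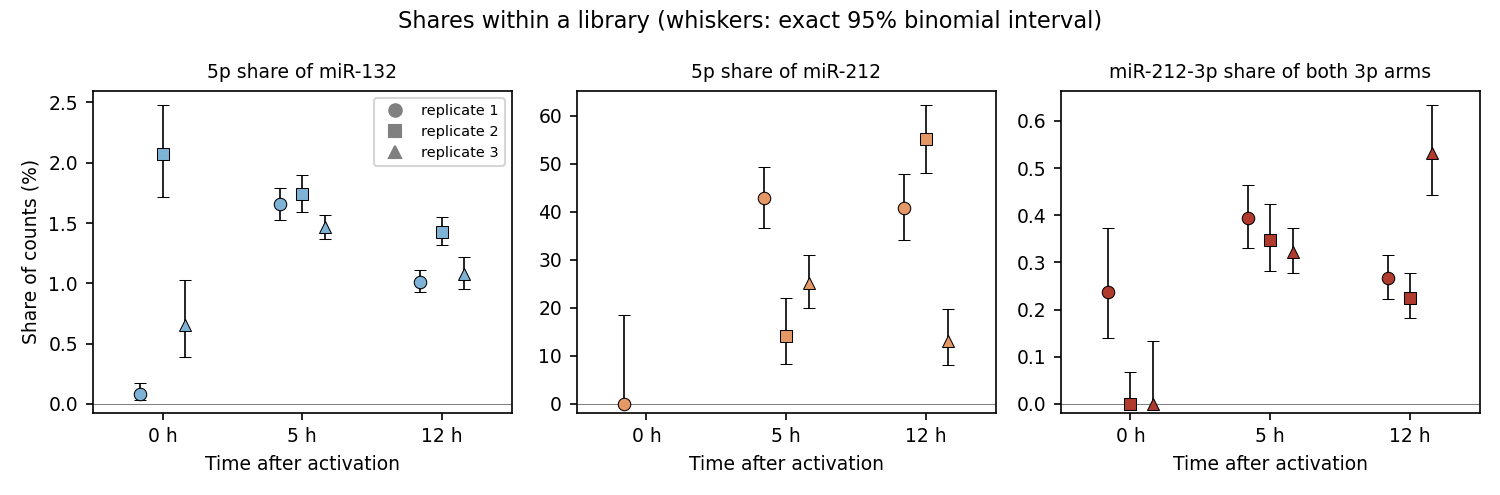
Share of counts (%) by time after activation for the 5p arm of miR-132, the 5p arm of miR-212 and miR-212-3p among both 3p arms, 1 point per library with its exact 95% binomial interval. In the left panel the controls run from 0.0790% to 2.07% and span the other libraries; 2 controls are missing in the middle panel, where miR-212 had no counts.

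The miRNAs nearest to miR-132-3p in profile were found by the root mean square difference, over the 9 libraries, of log2 CPM taken relative to the 0 h mean. Of 244 miRNAs with a mean of at least 10 CPM, the nearest 5 were miR-21-3p (1.07), miR-21-5p (1.11), miR-146a-5p (1.34), miR-132-5p (1.50) and miR-1294 (1.70), against a median of 2.41 over all 244. miR-212-3p and miR-212-5p had lower means and were not in this comparison. The limit of 10 CPM was on the mean over the 9 libraries. miR-21-3p, miR-132-5p and miR-1294 were below it in their 0 h means and reached it only through activated libraries. Their place among the nearest is thus not independent of that limit. miR-21-3p went from 4.81 ± 3.19 CPM at 0 h to 84.2 ± 7.19 at 5 h and 36.1 ± 11.6 at 12 h. miR-21-5p, an abundant arm that is raised in many activated cells, went from 255 ± 43.1 to 679 ± 32.4 and 854 ± 123 CPM. miR-146a-5p, which NF-kB induces, went from 255 ± 8.91 to 478 ± 31.4 and 882 ± 95.5 CPM (SD, n = 3). These 3 passed against 0 h at both times. miR-1294 did not, with 6.09 ± 1.72, 11.7 ± 1.78 and 12.9 ± 8.05 CPM and an edgeR adjusted p of 0.695 at 5 h and 0.661 at 12 h.

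**Figure D5:**
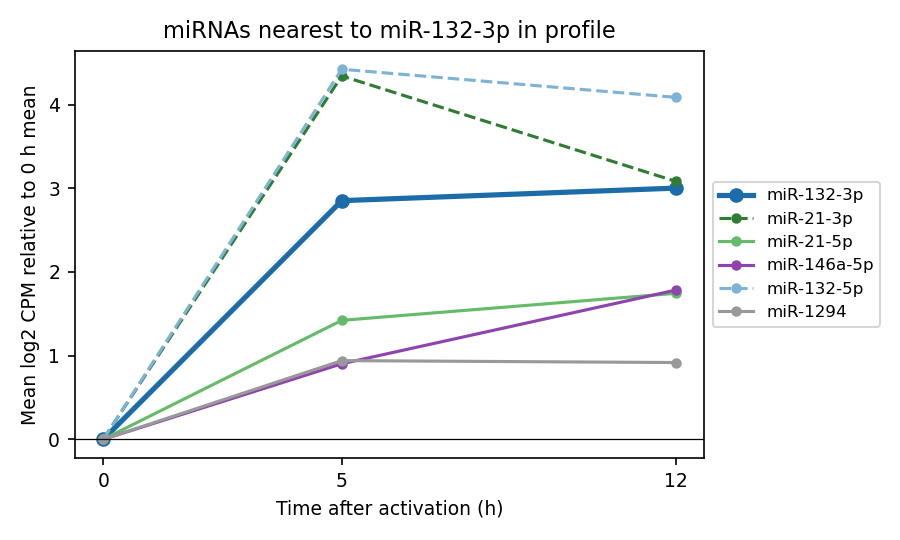
Mean log2 CPM relative to the 0 h mean (y axis) against time after activation in hours for miR-132-3p and the 5 miRNAs nearest to it. miR-21-3p and miR-132-5p run above miR-132-3p at 5 h, and miR-21-5p, miR-146a-5p and miR-1294 run below it at both times.

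Other miRNAs linked to CREB or to neuronal activity were read beside the cluster. Of 15 on the list, 7 were tested, and 0 rose and 0 fell in any comparison (edgeR). Of all rows, 1.43% were called higher and 0.143% lower at 5 h, and 0.999% and 0.428% at 12 h. Between 5 h and 12 h the shares were 0.143% and 0.428%. With shares this small, 7 miRNAs are too few for the lack of calls to be read as a result. DESeq2 and limma-voom called 0 of them in each comparison, and 1 at 5 h, 1 at 12 h and 2 between these times had an unadjusted edgeR p under 0.05. The share of all rows with such an unadjusted p was not computed. The median log2 change of the 7 was 0.30 at 5 h and 0.01 at 12 h, against 0.03 and 0.01 over all 626 miRNAs. Among them miR-9-5p had 144 ± 16.4, 192 ± 6.70 and 145 ± 39.2 CPM at 0, 5 and 12 h (adjusted p = 0.695 at 5 h). miR-22-3p had 185 ± 36.1, 228 ± 12.6 and 187 ± 22.7 CPM (SD, n = 3; adjusted p = 0.731 at 5 h).

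miR-22 is also the nearest other miRNA gene, 336005 bases from MIR132 (chr17:1713903-1713987, GRCh38). Within 1 Mb it and the genes MIR6776 and MIR1253 have 5 mature miRNAs in the table. Only miR-22-3p had enough counts to be tested, with 21244 counts over the 9 libraries, while miR-22-5p had 50, miR-6776-3p 11 and miR-6776-5p and miR-1253 none.

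Another list held 18 miRNAs, the cluster left out, that have been described as induced in activated T cells, and 15 were tested. At 5 h, where 1.43% of all rows were called higher and 0.143% lower, 4 rose and 0 fell: miR-21-3p, miR-21-5p, miR-146a-5p and miR-222-3p, the last from 717 ± 42.0 to 1011 ± 51.6 CPM (adjusted p = 0.0230). At 12 h, where 0.999% of all rows were called higher and 0.428% lower, 3 rose and 0 fell, the same without miR-222-3p (972 ± 65.1 CPM, adjusted p = 0.0647), whereas DESeq2 called 4. Between 5 h and 12 h, where 0.143% of all rows were called higher and 0.428% lower, 1 rose, miR-146a-5p (adjusted p = 0.000349), and 0 fell. The median log2 change of the 15 was 0.25 at 5 h and 0.26 at 12 h, against 0.03 and 0.01 over all 626. miR-155-5p, which is processed from the BIC transcript, had 2.71 ± 2.85, 9.37 ± 1.38 and 9.36 ± 2.97 CPM at the 3 times, about the levels of miR-212-3p at 5 h and 12 h, and did not pass (edgeR adjusted p = 0.538 at 5 h and 0.511 at 12 h).

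A further list of 20 arms, meant as the less abundant ones of their hairpins, was read beside the 5p arms of the cluster, and 17 were tested. One of them, miR-30e-3p, was the more abundant arm here (698, 715 and 732 CPM at the 3 times, against 479, 595 and 542 CPM for miR-30e-5p). At 5 h, against the 1.43% of all rows called higher, 3 rose and 0 fell: miR-21-3p, miR-222-5p (71.4 ± 25.4 to 158 ± 14.0 CPM) and miR-92a-1-5p (68.0 ± 13.9 to 132 ± 20.5 CPM). At 12 h, against 0.999% of all rows called higher and 0.428% lower, 1 rose, miR-21-3p, and 1 fell, miR-25-5p (76.9 ± 10.6 to 38.7 ± 9.05 CPM; SD, n = 3). Between 5 h and 12 h, against 0.143% called higher and 0.428% lower, 0 rose and 2 fell, miR-222-5p and miR-92a-1-5p, and neither 5p arm of the cluster passed. The median log2 change of the 17 was -0.01 at 5 h and -0.09 at 12 h.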

How the data were processed

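Small RNA libraries of 9 samples, 3 each at 0 h, 5 h and 12 h, were analysed; groups and replicate numbers come from the labels. Column-purified RNA went into RealSeq libraries, per the labels. The authors deposited raw counts per pair of precursor and mature miRNA (2883 rows, 1917 precursors) and a table of log2 values (430 rows), which hold scaled counts with 1 added (checked to 5.05e-09) and, of the cluster, both arms of miR-132 only. The submitters' processing notes name GRCh38.p13 and DESeq2, and no source used here gives the aligner or counter.

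Of 1214 rows above 0, 701 passed filterByExpr (minimum count 10, minimum total 15) and were fitted with edgeR 4.0.16 (R 4.3.3): TMM scaling, quasi-likelihood F tests with the time as the only factor and all 9 libraries, and Benjamini-Hochberg adjustment over all rows at 0.05. SE and 95% intervals were derived from that test. Repeated precursor rows of other miRNAs enter the totals. Ratios of arms were fitted with limma 3.58.1 (0.5 added to each count), and shares were compared by exact permutation over samples. The labels do not say whether a replicate number is shared between times. Deviations from the group mean correlated at -0.03 to 0.06 for libraries of the same number and at -0.11 to 0.09 for others. This check covers all rows tested, many with low counts, and cannot exclude a pairing. No library was a copy of another of the same time (chi-square over degrees of freedom of 70.4 or more). Libraries of different times were not compared in this way. The scripts were tested on simulated data. The members and lists were chosen with earlier results of these data known. Named beside the 4 arms were miRNAs with a common seed, the 5 nearest in profile (prior count 2), genes within 1 Mb, up to 4 members per list that passed and neighbours in abundance; miR-9-5p, miR-155-5p, miR-122-5p and both arms of miR-30e were named after their values were seen. Folds were predicted with RNAfold of ViennaRNA, and figures drawn with matplotlib 3.10.9. Alternatives were other scalings, filters and tools, only the 2 groups compared, the replicate block, 1 row per mature miRNA, limma on the deposited log2 values, and omission of each library in turn.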

Additional observations from a re-analysis of the deposited data

How the results depend on the processing

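All alternatives that were run kept the direction of the 4 arms against 0 h, and miR-132-3p passed in each, with a log2 change of 2.77 to 2.96 at 5 h and 2.92 to 3.15 at 12 h. The number of arms past the threshold stayed within 1.5 times the 4 reported, except that at 12 h it was 2 when the 5 h libraries were omitted and 2 when both shallowest libraries were. The deposited log2 values list 2 of the 4 arms, so that limma called at most 2 there (2 at 5 h, 2 at 12 h and 2 over the 3 times). Without a variance trend, an alternative chosen after the data were seen, like the omission of the 2 shallowest libraries, limma called 1 in each of these. Over the 3 times, 2 arms passed without the 2 shallowest libraries, and omitting each library in turn left 2 to 4. With the replicate block 4 arms passed at 5 h and 4 at 12 h, so that the block changed no call of an arm.

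Between 5 h and 12 h, where no arm passed, the log2 change of miR-212-3p was -0.15 with limma-voom, -0.42 without both shallowest libraries, and -0.42 to 0.35 with single libraries omitted (lowest without replicate 3 of 12 h). That of miR-212-5p was -0.077 to 1.25 with single libraries omitted, and -0.05 without replicate 2 of 5 h. The 5p share of miR-132 at 12 h against 0 h differed by -0.187 to 0.808 points with each library left out, and p over the 3 times was 0.00357 to 0.657. At 12 h against 5 h the share of miR-212-3p differed by -0.109 to 0.0443 points, and p over the 3 times was 0.0429 to 0.214. The log2 arm ratio of miR-132 at 12 h against 0 h ran from -2.29 to 0.025, and that of miR-212 between 5 h and 12 h from -1.39 to 0.10. For these sign changes the cause was not tested. The arms of miR-212 held at most 187 counts in a library, and the part of depth in their spread was not tested.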
